A study of Mus musculus with 22 samples.

Results

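Subunits of the vacuolar proton pump, the vacuolar-type H+-ATPase, were examined in the colon of VC- and VC+ mice during dextran sodium sulfate (DSS) colitis. The 10 genes were taken by name as core subunits Atp6v0a1, Tcirg1, Atp6v0b, Atp6v0c, Atp6v0d1, Atp6v0d2, Atp6v1a, Atp6v1b2 and Atp6v1h and the accessory subunit Atp6ap1, out of 18194 genes with a probe set of their own on the array. They were chosen with earlier results of these data known, and further pump subunits, core ones among them, are given separately below. For each gene the value came from the probe set, a group of short oligonucleotides read as 1 signal, with the largest interquartile range over the 22 arrays, whatever its direction of change. Atp6v0c had no probe set listed for it alone and was not analysed here, which left 9 genes. Of these 9 genes, 7 passed the variance filter that kept the upper 50% of genes, while Atp6v0d2 and Atp6v1h varied too little to pass and are given from a fit without that filter.

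All mice carried PPAR γ fl/fl alleles. The study used lines of mixed FVB/C57BL/6 and of C57BL/6 background, and the labels do not say which line the arrays came from. VC- mice had no Cre transgene and kept PPAR γ in the epithelium. VC+ mice carried Villin Cre, which is driven by an epithelial promoter, so that macrophages, muscle and other cells of the colon keep their PPAR γ. Mice were sampled at day 0 without DSS and at day 2 and day 7 of 2.5% DSS in drinking water. The VC- groups held 3, 3 and 4 arrays at days 0, 2 and 7, and the VC+ groups held 3, 5 and 4 arrays. Neither ages nor the number of mice behind the arrays are given in the labels, so p-values measure the spread between samples, which may be technical.

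The pump is a rotary machine with a cytosolic V1 sector, which hydrolyses ATP, and a membrane V0 sector, which carries protons across the membrane. It acidifies lysosomes, endosomes and secretory granules, and lysosomal hydrolases such as cathepsins need the low pH it makes. Macrophages and osteoclasts hold many pumps, osteoclasts also at the cell surface, and several subunits exist as tissue-specific isoforms.

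The arrays gave log2 signals between 0.58 and 16.76, and the medians of the arrays lay between 3.41 and 3.55. As 41.7% of all values were under 3, a signal near 2 or 3 on the log2 scale is close to the lowest the array reads. Pparg was 9.58 to 9.63 on the VC- and 8.50 to 8.83 on the VC+ arrays of day 0. At day 2 it was 9.87 to 10.96 on the VC- and 6.87 to 9.54 on the VC+ arrays. At day 7 the ranges overlapped, at 7.39 to 9.82 (median 8.475) in VC- and 6.26 to 10.35 (median 9.31) in VC+ mice. A lower Pparg signal in VC+ mice was thus not seen at day 7. The tissue held more than epithelium, since the mean of the smooth muscle markers lay between 9.51 and 12.15 and that of the colonocyte markers between 9 and 12.32. VC- day 0 replicate 3, VC- day 7 replicate 2 and VC+ day 7 replicate 4 carried the pancreatic trypsinogen Prss2 at 13.77, 14.74 and 11.20, against 3.27 to 4.20 on the other arrays. VC- day 7 replicate 2 had the lowest mean correlation with its own group, 0.898. Xist, an RNA made by female cells, exceeded 8 on 6 of 14 arrays before day 7 and on 0 of 8 at day 7. Atp6ap1 lies on the X chromosome, and its change is therefore also given with Xist as a term.

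Promoters were read for the subunits because lysosomal genes are known to share a motif, CACGTG, the core of the sites bound by the transcription factors TFEB and TFE3. RefSeq windows from 250 bases before to 50 after a gene start (GRCm38.p6) were at hand for 7 of the 10 genes. The letters CACGTG, which read the same on both strands, occurred in the windows of Atp6v0b, Atp6v0d1 and Atp6v1a. They occurred in 7.15% of all 32851 windows and for 8.09% of all 27025 genes with a window. The longer form TCACGTGA, which always contains the shorter, occurred in Atp6v0d1 and Atp6v1a, in 0.974% of all windows and for 1.12% of the genes. The windows of those 3 genes are shown with CACGTG in capitals, beside that of Atp6v0a1, the subunit with the largest tested change, which held neither motif.
Atp6v0b: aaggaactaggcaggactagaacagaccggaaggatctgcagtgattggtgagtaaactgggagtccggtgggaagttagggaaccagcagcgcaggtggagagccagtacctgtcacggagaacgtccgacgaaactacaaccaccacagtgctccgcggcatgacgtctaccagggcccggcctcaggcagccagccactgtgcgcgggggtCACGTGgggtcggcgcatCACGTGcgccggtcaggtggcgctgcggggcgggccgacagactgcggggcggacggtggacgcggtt
Atp6v0d1: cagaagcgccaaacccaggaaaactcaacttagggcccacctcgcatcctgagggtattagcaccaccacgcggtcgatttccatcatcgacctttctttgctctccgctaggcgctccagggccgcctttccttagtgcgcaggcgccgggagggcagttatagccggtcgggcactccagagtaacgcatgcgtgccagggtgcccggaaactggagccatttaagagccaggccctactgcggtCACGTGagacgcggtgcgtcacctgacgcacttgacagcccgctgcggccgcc
Atp6v1a: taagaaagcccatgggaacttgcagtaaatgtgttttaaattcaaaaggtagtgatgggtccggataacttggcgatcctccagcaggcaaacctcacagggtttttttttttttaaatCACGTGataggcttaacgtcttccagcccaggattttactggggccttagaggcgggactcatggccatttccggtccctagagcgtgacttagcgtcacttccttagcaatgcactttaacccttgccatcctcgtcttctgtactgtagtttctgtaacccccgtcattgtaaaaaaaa
Atp6v0a1: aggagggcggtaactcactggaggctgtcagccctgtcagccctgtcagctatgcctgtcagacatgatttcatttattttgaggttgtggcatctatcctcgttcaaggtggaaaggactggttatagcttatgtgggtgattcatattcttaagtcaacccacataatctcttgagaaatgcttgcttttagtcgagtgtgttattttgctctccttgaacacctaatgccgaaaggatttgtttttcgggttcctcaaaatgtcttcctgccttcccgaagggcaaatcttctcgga
They lie at chr4:117887280-117887579 on the minus strand (Atp6v0b), chr8:105566015-105566314 on the minus strand (Atp6v0d1), chr16:44139210-44139509 on the minus strand (Atp6v1a) and chr11:101010148-101010447 on the plus strand (Atp6v0a1). The starts of the Atp6v1a and Atp6v0a1 windows lie inside the annotated spans of the genes, chr16:44085402-44139702 and chr11:101009422-101063719, and other starts of these genes were not searched. The motif began 36 and 18 bases before the start in Atp6v0b, 3 bases before it in Atp6v0d1 and 131 bases before it in Atp6v1a. No window of Tcirg1, Atp6v0c or Atp6ap1 held these letters. Neither of the subunits that passed the test at day 7, Atp6v0a1 and Tcirg1, was therefore among the 3 genes with the motif in its window.

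At day 7 of DSS, 2 of the 7 subunits tested were higher than at day 0 in VC- mice in the limma fit with Benjamini-Hochberg adjustment over 9097 genes. These were Atp6v0a1 and Tcirg1, both forms of the large membrane subunit a. The other 5 had positive changes that did not pass, and 6 of the 7 had an unadjusted p under 0.05, as did 32.4% of all genes tested. Over all genes tested, 10.6% passed in either direction and 5.53% passed as a rise. The median log2 change of the 7 subunits was 0.51, against -0.09 over all genes tested. Over the 6 other pump subunits tested it was -0.16. The study named Atp6v0a1, Tcirg1, Atp6v0b and Atp6v0c among lysosomal genes that it picked for their change in VC- mice on these samples, so the direction of the 3 that were measured here is not independent evidence. All members were chosen with earlier results known, so the shared direction of the 7 describes this list and not the whole pump. In bulk tissue, more cells of a type and more RNA per cell cannot be told apart. The site sampled may also differ, since Hoxb13, a gene of the distal colon, was 7.29, 9.13 and 9.67 on the VC- arrays of day 0. On those of day 7 it was 3.81, 2.86, 3.03 and 9.62. With Hoxb13 as a term, 1 subunit passed, Atp6v0a1, as did 525 of all genes. The part of the site in these changes was not tested.

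**Figure D1:**
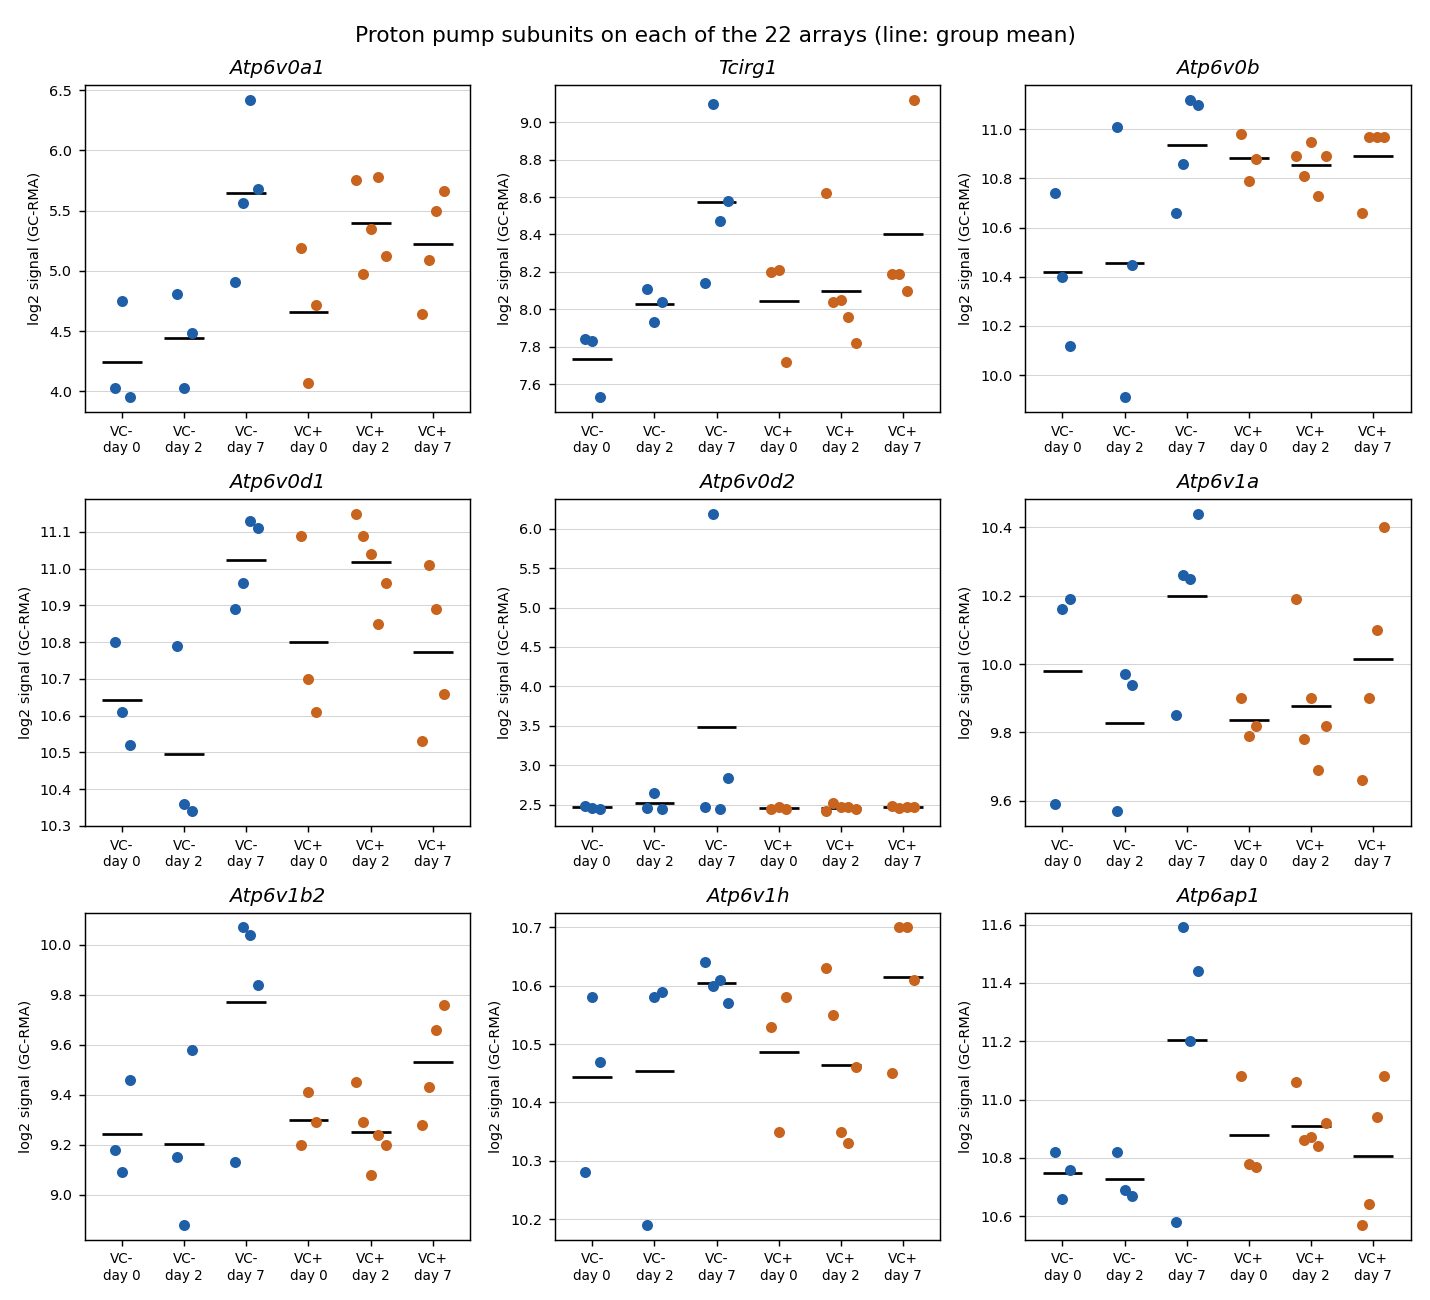
The log2 signal of 9 pump subunits is plotted for each of the 22 arrays, VC- arrays in blue and VC+ arrays in orange, with a line at each group mean. The VC- arrays of day 7 lie above all VC- arrays of day 0 for Atp6v0a1, Tcirg1 and Atp6v0d1, and Atp6v0d2 stands above its low level on 1 array.

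Atp6v0a1 encodes subunit a1, the isoform of the membrane arm best known from neurons and widely expressed. Its log2 signal was 4.03, 4.75 and 3.95 on the VC- arrays of day 0 and 4.81, 4.03 and 4.48 on those of day 2. It was 4.91, 5.56, 6.42 and 5.68 on the VC- arrays of day 7. All 4 arrays of day 7 lay above all arrays of days 0 and 2, with replicate 3 the highest. The mean went from 4.24 ± 0.44 (SD, n = 3) to 5.64 ± 0.62 (SD, n = 4), a log2 change of 1.40 with a standard error of 0.36, or 2.64-fold (limma, adjusted p = 0.0255). Atp6v0a1 has 4 probe sets, and the other 3 changed by 0.08, 0.22 and -0.04 on the log2 scale, none passing the test when every probe set was tested. Of those, the brightest had a mean of 4.23 on the VC- arrays of day 0, beside 4.24 for the main probe set. At day 7 its mean was 4.31 and its highest array 4.54, while the others reached at most 2.74. The rise was thus read on 1 probe set and was not seen on another with a like mean at day 0. On the VC- arrays of day 0 that other probe set had an SD of 0.02, against 0.44 for the main one. A like mean does not make both equally readable, so the lack of a rise there says little.

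Tcirg1 encodes subunit a3, the isoform of lysosomes and of the osteoclast surface, whose loss causes osteopetrosis. It gave 7.84, 7.83 and 7.53 on the VC- arrays of day 0, 8.11, 7.93 and 8.04 at day 2 and 8.14, 9.10, 8.47 and 8.58 at day 7. The arrays of day 7 did not overlap with those of days 0 or 2, although replicate 1 lay only just above the highest array of day 2. The log2 change from day 0 was 0.84 with a standard error of 0.26, a 1.79-fold rise (limma, adjusted p = 0.048). This call lay close to the threshold, and it was lost in 19 of 22 fits with 1 array left out, with adjusted p values from 0.0129 to 0.177. Without VC- day 7 replicate 2, the array with pancreatic signal, the change was 0.66 (adjusted p = 0.125), and without VC- day 0 replicate 3 it was 0.74 (adjusted p = 0.177).

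The call for Atp6v0a1 was lost in 3 of 22 such fits, namely without VC- day 0 replicate 1 (1.29, adjusted p = 0.0657), VC- day 0 replicate 3 (1.25, adjusted p = 0.118) or VC- day 7 replicate 3 (1.14, adjusted p = 0.0613). With all 3 arrays that carried Prss2 left out, the changes were 1.28 for Atp6v0a1 (adjusted p = 0.146) and 0.56 for Tcirg1 (adjusted p = 0.215), and none of the subunits passed.

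**Figure D2:**
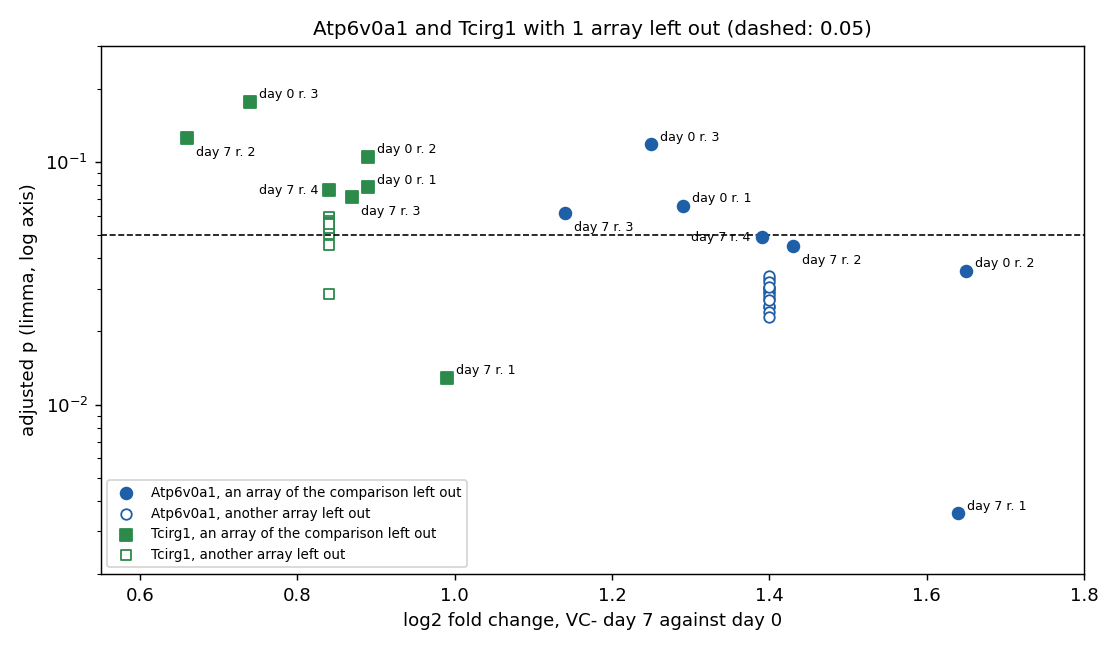
Each point is a limma fit with 1 of the 22 arrays left out, with the log2 change of VC- day 7 against day 0 on the x axis and the adjusted p on a logarithmic y axis, for Atp6v0a1 (circles) and Tcirg1 (squares). Filled points leave out an array of the comparison itself, and the points above the dashed line at 0.05 are 3 for Atp6v0a1 and 19 for Tcirg1.

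Atp6v0b encodes subunit c″ of the proteolipid ring, which carries the protons. Its main probe set gave 10.74, 10.40 and 10.12 on the VC- arrays of day 0, 11.01, 9.91 and 10.45 on those of day 2, and 10.66, 10.86, 11.12 and 11.10 on those of day 7. The groups overlapped, and the log2 change from day 0 to day 7 was 0.51 with a standard error of 0.22 (limma, adjusted p = 0.114). A second probe set of the gene read 9.86, 9.50 and 9.19 at day 0 and 10.19, 10.47, 10.56 and 10.29 at day 7, with no overlap. When every probe set was tested as its own row, a choice made after the data were seen, this second one rose by 0.86 with a standard error of 0.19 (limma, adjusted p = 0.0332). In that fit the main probe set of Atp6v0a1 no longer passed (limma, adjusted p = 0.0525). The interquartile ranges that decided between the probe sets were 0.29 and 0.28, so that the call for Atp6v0b hung on this small gap.

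Atp6v0d1 encodes subunit d1, the ubiquitous part of the central stalk on the membrane side. It was 10.80, 10.61 and 10.52 on the VC- arrays of day 0, 10.79, 10.36 and 10.34 at day 2 and 10.89, 10.96, 11.13 and 11.11 at day 7. Every VC- array of day 7 was above every array of days 0 and 2, but the step was small. The log2 change was 0.38 against day 0 (standard error 0.18, limma adjusted p = 0.146) and 0.52 against day 2 (standard error 0.18, limma adjusted p = 0.0745). Across the 9 subunits, 3 (Atp6v0a1, Tcirg1 and Atp6v0d1) had every VC- array of day 7 above every VC- array of day 0, as did 4.96% of all 18194 genes. The same 3 were above every array of day 2, as were 3.8% of all genes.

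Atp6v0d2 encodes the d isoform of osteoclasts and some macrophages and kidney cells. It lay between 2.42 and 2.84 on 21 of the 22 arrays and at 6.19 on VC- day 7 replicate 2. Its other probe set gave 5.61 on that array and 1.73 to 1.77 on the rest. In the fit without the variance filter the change at day 7 was 1.02 with a standard error of 0.59 (limma, adjusted p = 0.268), and it rested on that 1 array. The array also had the highest mean of the osteoclast and multinucleate macrophage markers, 5.76 against 4.11 to 5.10 on the other 3 arrays of its group. Of the 10 genes in that list, 3 were tested in VC- mice at day 7 against day 0, with log2 changes from 0.04 to 4.49. Only Gpnmb passed, at 4.49 (standard error 1.03, limma adjusted p = 0.016), where 10.6% of all genes passed. Ctsk reached 9.27 and Gpnmb 9.54 among the VC- arrays of day 7, while the fusion and osteoclast genes Dcstamp, Ocstamp and Calcr did not exceed 2.69, 1.70 and 2.45. The levels of Acp5, Oscar, Nfatc1, Itgb3 and Mmp9 are not given here. The part of osteoclasts or multinucleate macrophages in the Atp6v0d2 signal was not tested.

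Among the V1 members, Atp6v1a, Atp6v1b2 and Atp6v1h, none passed the test at day 7 against day 0 in VC- mice. Another V1 subunit, Atp6v1c1, is given below. Atp6v1a, the catalytic subunit A, gave 9.59, 10.16 and 10.19 at day 0 and 9.85, 10.26, 10.25 and 10.44 at day 7. These ranges overlapped widely and the log2 change was 0.22 (standard error 0.21, limma adjusted p = 0.466). Atp6v1b2, the B subunit of most tissues, gave 9.18, 9.09 and 9.46 at day 0 and 9.13, 10.07, 10.04 and 9.84 at day 7. Replicate 1 of day 7 stayed among the arrays of day 0 while the other 3 lay above them, and the change was 0.52 (standard error 0.22, limma adjusted p = 0.116). Atp6v1h, the regulatory H subunit that joins both sectors, stayed between 10.19 and 10.70 on all arrays, with a change of 0.16 (standard error 0.10, limma adjusted p = 0.302 without the variance filter).

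Atp6ap1, which encodes the accessory protein Ac45 that is known to aid assembly and targeting of the pump, gave 10.82, 10.66 and 10.76 on the VC- arrays of day 0. On those of day 7 it gave 10.58, 11.59, 11.20 and 11.44. Replicate 1 was the lowest of these 7 arrays, and the other 3 arrays of day 7 lay above all of day 0. The log2 change was 0.46 (standard error 0.20, limma adjusted p = 0.132) and 0.42 with Xist as a term (limma, adjusted p = 0.183). Without VC- day 7 replicate 1, 4 subunits passed, the others being Atp6v0a1, Tcirg1 and Atp6v1b2.

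**Figure D3:**
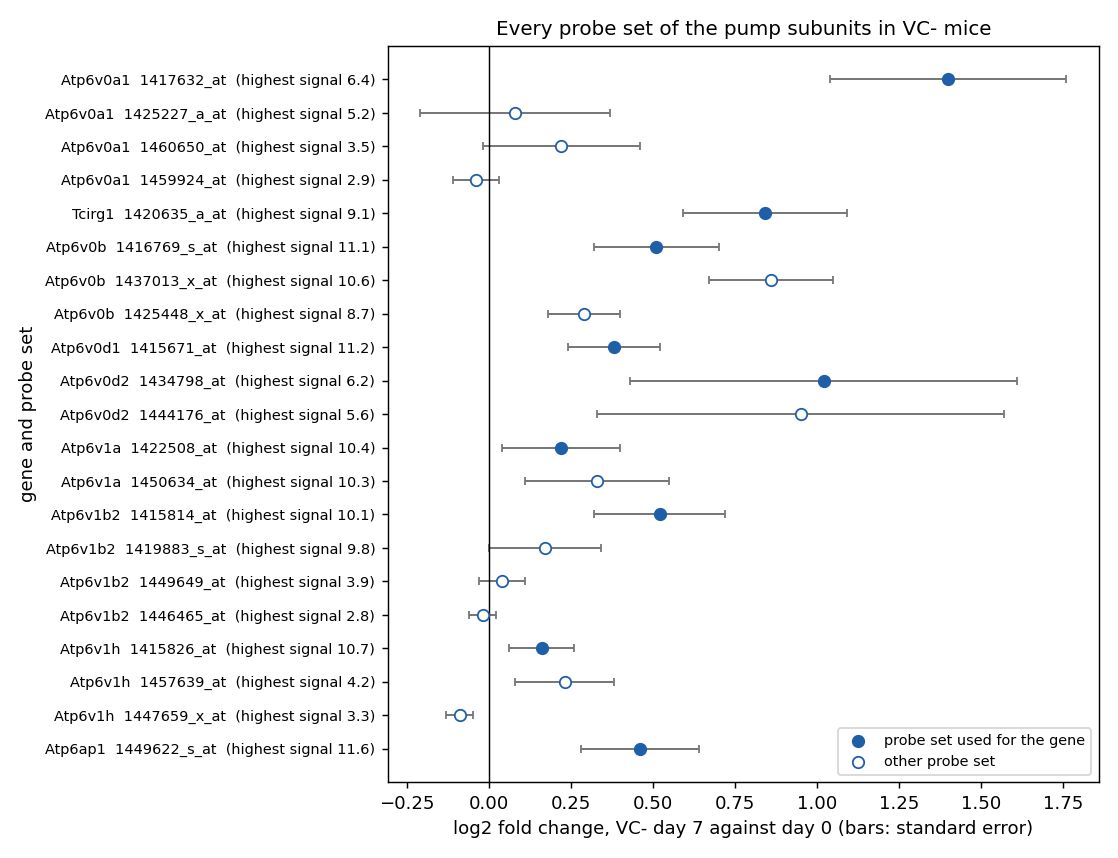
The log2 change of VC- day 7 against day 0 is shown for every probe set of the 9 subunits, with bars of 1 standard error and the highest signal of each probe set beside its name. Filled points are the probe sets used for the gene, and for Atp6v0a1 the used probe set, at 1.40, stands apart from the other 3, at 0.22 or lower.

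In VC+ mice, none of the 7 subunits tested passed at day 7 against day 0 in the limma fit, and none had an unadjusted p under 0.05. Over all genes tested, 1.75% passed. The changes ran from -0.07 to 0.56 with a median of 0.18, against -0.02 over all genes. Atp6v0a1 was 5.19, 4.07 and 4.72 on the VC+ arrays of day 0, 5.75, 4.97, 5.35, 5.78 and 5.12 at day 2 and 4.64, 5.09, 5.50 and 5.66 at day 7. The ranges of days 2 and 7 overlapped, and the log2 change from day 0 was 0.73 at day 2 (standard error 0.34, limma adjusted p = 0.748) and 0.56 at day 7 (standard error 0.36, limma adjusted p = 0.535). The change at day 7 was 0.27 without VC+ day 0 replicate 2 (limma, adjusted p = 0.914) and 0.83 without VC+ day 0 replicate 1 (adjusted p = 0.424).

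Tcirg1 was 8.20, 8.21 and 7.72 on the VC+ arrays of day 0 and 8.62, 8.04, 8.05, 7.96 and 7.82 on those of day 2. At day 7 it was 8.19, 8.19, 8.10 and 9.12, with 1 high array, replicate 4, which also carried Prss2. The change at day 7 was 0.36 (standard error 0.26, limma adjusted p = 0.613), 0.12 without that array (adjusted p = 0.98) and 0.19 without VC+ day 0 replicate 3 (adjusted p = 0.907). Atp6v0b in VC+ mice was 10.98, 10.79 and 10.88 at day 0 and 10.66, 10.97, 10.97 and 10.97 at day 7, a log2 change of 0.01 with a 95% interval of -0.45 to 0.46. Atp6v0d1 gave 11.09, 10.70 and 10.61 at day 0 and 10.53, 11.01, 10.89 and 10.66 at day 7, a change of -0.03 that, like that of Atp6v0b, took the other sign under some alternatives. For no subunit did all VC+ arrays of day 7 lie above those of day 0, while 5.84% of all genes did so.

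The remaining VC+ changes at day 7 were 0.18 for Atp6v1a, 0.23 for Atp6v1b2, 0.13 for Atp6v1h, -0.07 for Atp6ap1 and 0.02 for Atp6v0d2. Atp6ap1 gave 11.08, 10.78 and 10.77 on the VC+ arrays of day 0 and 10.57, 10.64, 10.94 and 11.08 on those of day 7, ranges that overlapped fully.

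**Figure D4:**
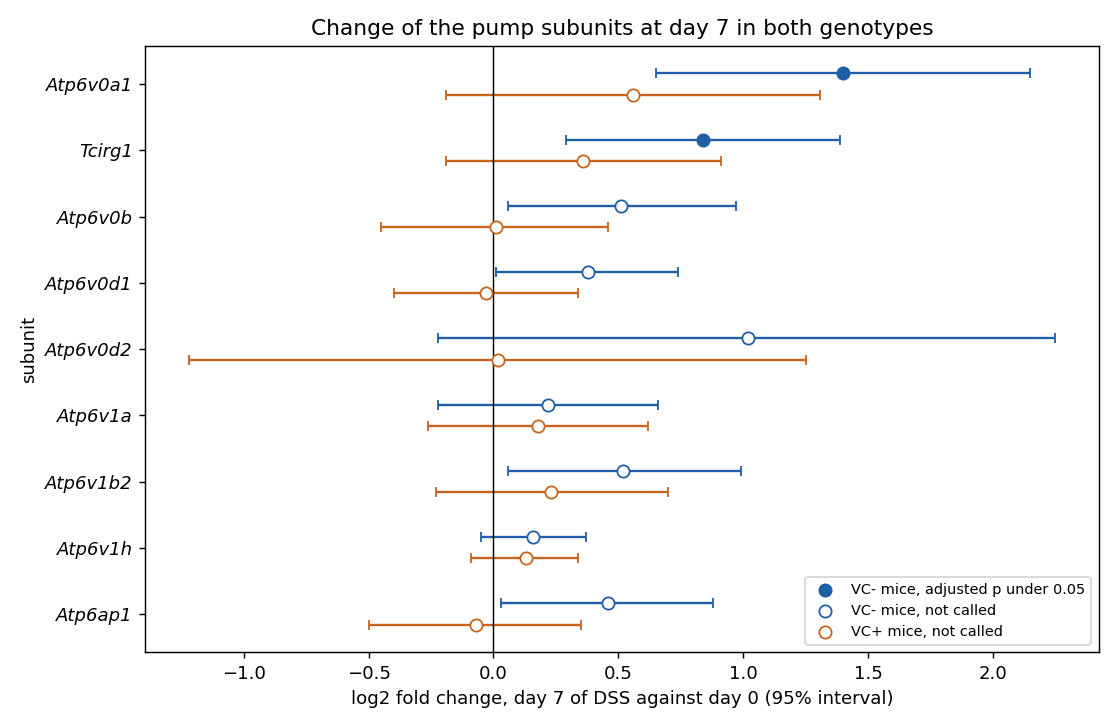
The log2 change of day 7 against day 0 is shown for 9 subunits in VC- (blue) and VC+ (orange) mice, with 95% intervals. Filled points passed the limma test, which only Atp6v0a1 and Tcirg1 did, in VC- mice, and for each subunit the intervals of the 2 genotypes overlap.

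Whether the response to DSS differed between the genotypes was tested directly. The change at day 7 in VC+ mice minus that in VC- mice was negative for all 7 subunits tested, with a median of -0.48 against 0.04 over all genes. None of the 7 passed, none had an unadjusted p under 0.05, and 0% of all genes passed in this comparison. Over the 6 other pump subunits tested the median was -0.06, and 2 were positive. The difference was -0.84 for Atp6v0a1 (95% interval -1.89 to 0.22, limma adjusted p = 0.624), -0.48 for Tcirg1 (-1.26 to 0.30, adjusted p = 0.675) and -0.53 for Atp6ap1 (-1.13 to 0.08, adjusted p = 0.612). A difference in response was thus not shown, and the lower ends of the intervals for Atp6v0a1 and Tcirg1 reach beyond the size of their rise in VC- mice. With array quality weights Atp6ap1 passed, at -0.70 (limma, adjusted p = 0.0419), in a fit that called 8.71% of all genes in this comparison.

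At day 7 all 7 subunits had lower means in VC+ than in VC- mice, by a median of -0.24 on the log2 scale, and none passed (limma, 1 with unadjusted p under 0.05 against 14.2% of all genes, 0% of all genes called). That 1 was Atp6ap1, at -0.39 with a standard error of 0.19 (adjusted p = 0.35). At day 2 the order was the other way, and all 7 means were higher in VC+ mice by a median of 0.18, with none passing and 2 with unadjusted p under 0.05, where 0.044% of all genes passed and 12.3% had such an unadjusted p. These were Atp6v0a1, at 0.96 (standard error 0.34, limma adjusted p = 0.284), and Atp6v0d1, at 0.52 (standard error 0.17, limma adjusted p = 0.264). Every VC+ array of day 2 lay above every VC- array of day 2 for 3 subunits, Atp6v0a1, Atp6v0d1 and Atp6ap1, as for 2% of all genes. Atp6v0d1 read 11.15, 11.09, 11.04, 10.85 and 10.96 on these VC+ arrays against 10.79, 10.36 and 10.34 on the VC- arrays. Smooth muscle markers were also higher in VC+ mice at day 2, in 8 of 8 by a median of 1.15, with 6 at an unadjusted p under 0.05 and none passing (limma). Hoxb13, a gene of the distal colon, was 2.88 to 3.08 on the VC- arrays of day 2 and 12.42, 3.07, 9.45, 10.44 and 11.19 on the VC+ arrays. With Hoxb13 as a term the difference of Atp6v0a1 was 0.55 (limma, adjusted p = 1). Over 11 alternatives, Hoxb13 as a term among them, the difference ran from 0.55 to 0.98 for Atp6v0a1 and from 0.43 to 0.56 for Atp6v0d1. The part of muscle and of the site sampled in these differences was not tested. Before DSS 6 of the 7 means were higher in VC+ mice, by a median of 0.16 over the 7. There none passed and none had an unadjusted p under 0.05 (limma), while 0.011% of all genes passed. These day 0 means enter the difference in response at day 7. For Atp6v0b, with a response difference of -0.51, VC+ minus VC- was 0.47 at day 0 and -0.04 at day 7. For Atp6ap1, with a response difference of -0.53, it was 0.13 and -0.39.

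Between days 0 and 2, no subunit passed in VC- mice (limma, 0 with unadjusted p under 0.05, 0.011% of all genes called), and the changes ran from -0.15 to 0.30. In VC+ mice none passed either (limma, 1 with unadjusted p under 0.05, Atp6v0a1, 0.055% of all genes called). In the test of the difference in day 2 response between genotypes, no subunit passed (limma, 0 with unadjusted p under 0.05, 0.022% of all genes called). From day 2 to day 7, all 7 subunits had positive changes in VC- mice, with a median of 0.52 against -0.07 over all genes, and none passed although 5 had an unadjusted p under 0.05 (limma, 5.61% of all genes called, 29.2% with such an unadjusted p). Atp6v0a1 came closest, at 1.20 with a standard error of 0.36 (limma, adjusted p = 0.0535). It passed without VC- day 7 replicate 1 (1.45, adjusted p = 0.0106), VC- day 2 replicate 1 (1.39, adjusted p = 0.0396) or VC+ day 7 replicate 4 (1.20, adjusted p = 0.0486). In VC+ mice the changes from day 2 to day 7 ran from -0.25 to 0.30, and none passed or had an unadjusted p under 0.05 (limma, 7.58% of all genes called). These comparisons share their day 7 arrays with those against day 0.

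Of 16 other pump subunits listed, 15 had a probe set and 6 were tested. None passed at day 7 against day 0 in either genotype (limma), with 2 in VC- and 1 in VC+ mice at an unadjusted p under 0.05. Such an unadjusted p was found for 32.4% of all genes in VC- and 13.7% in VC+ mice. The median change of the 6 subunits in VC- mice was -0.16, with 2 of the 6 positive. Atp6v1c1, the C subunit of the V1 sector that is released when the sectors come apart, gave 11.25, 11.29 and 11.61 on the VC- arrays of day 2 and 11.65, 12.18, 11.87 and 11.96 at day 7. It passed narrowly, at 0.53 with a standard error of 0.15 (limma, adjusted p = 0.0499), and lost the call in 20 of 22 fits with 1 array left out, where adjusted p ran from 0.0118 to 0.149. Atp6ap2, the accessory subunit also known as the prorenin receptor, had negative changes at day 7, of -0.51 in VC- mice (standard error 0.17, limma adjusted p = 0.0547) and -0.59 in VC+ mice (standard error 0.17, limma adjusted p = 0.0949). Without the variance filter, where 15 were tested, Atp6v1c1 rose at day 7 against day 0 in VC- mice, by 0.47 (standard error 0.11, limma adjusted p = 0.028). Atp6ap2 passed as lower in that fit in VC- mice (adjusted p = 0.0381) and in VC+ mice (adjusted p = 0.0497).

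Few genes passed among the lysosome gene regulators, the lysosomal channels and transporters and the assembly-related genes. Lamtor1, which anchors the nutrient-sensing Ragulator complex to lysosomes, rose at day 7 in VC- mice by 0.60 (standard error 0.17, limma adjusted p = 0.038). It was the 1 call among 8 regulators tested, where 10.6% of all genes passed. Slc11a1, the proton-coupled metal transporter of phagosomes, rose at day 7 in VC+ mice by 2.30 (standard error 0.53, limma adjusted p = 0.0315). It was the 1 call among 8 channels and transporters, where 1.75% of all genes passed. In VC- mice none of those 8 passed, and the highest change was 1.63 (limma, 3 with unadjusted p under 0.05, as had 32.4% of all genes). None of the 8 passed in the test of the difference in day 7 response between genotypes. Oxr1, 1 of 5 assembly-related genes tested, fell by 0.54 on the log2 scale from day 2 to day 7 in VC+ mice (standard error 0.16, limma adjusted p = 0.042). In that comparison 7.58% of all genes passed. Of 24 lysosomal hydrolases and membrane proteins tested, 11 rose at day 7 in VC- mice, with a median change of 0.75, and 1 rose in VC+ mice, with a median of 0.12. Over all genes tested, 5.53% passed as a rise in VC- mice, and 1.75% passed in either direction in VC+ mice. The list of hydrolases and membrane proteins, whose proteins work in the acid that the pump makes, overlaps with the set that the study picked on these samples.

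Markers of several other cell types were higher at day 7 as well. Of 21 macrophage and monocyte markers tested, 18 rose at day 7 in VC- mice (median log2 change 2.08) and 9 rose in VC+ mice (median 1.90), where no pump subunit passed. Over all genes tested, 10.6% passed in VC- and 1.75% in VC+ mice in these comparisons. None of the macrophage and monocyte markers fell, and Cd68 went from a mean of 5.76 to 9.08 in VC- mice. The mean signal of the macrophage and monocyte list was 7.07 to 7.24 on the VC- arrays of day 0 and 7.92, 10.25, 9.06 and 9.40 on those of day 7. The mean of 8 pump subunits, all but Atp6v0d2, was 9.12 to 9.26 at day 0 and 9.35, 9.87, 9.91 and 9.84 at day 7. Replicate 1 of day 7 was the lowest of its group in both, while the order of replicates 2 to 4 differed between them. In VC+ mice the macrophage means of day 7 were 8.42, 8.57, 8.95 and 10.04 and the pump means 9.25, 9.49, 9.61 and 9.78, with the same order of the arrays. The response at day 7, VC+ minus VC-, had a median of -0.03 over the macrophage markers and of -0.48 over the pump subunits. Of 3 neutrophil markers tested, 2 rose in each genotype, with medians of 7.97 in VC- and 9.16 in VC+ mice. All 6 enteric neuron and glia markers tested had positive changes in VC- mice (median 1.20, 1 passing), against 2 of 6 in VC+ mice (median -0.35, none passing in limma). Their means on the VC- arrays of day 7 were 4.87, 6.91, 5.79 and 6.06, against 5.04 to 5.20 at day 0, and 4.48 to 5.62 on the VC+ arrays of day 7. The median response difference of these markers was -1.46, and none passed. The colonocyte markers did not rise in VC- mice, where all 11 tested had negative changes (median -1.07) and Slc26a3, the chloride exchanger of the surface epithelium, fell by 2.88 (limma, adjusted p = 0.0452). In VC+ mice 5 of the 11 had positive changes (median -0.08), and none passed. Their response difference was positive for 10 of 11, with a median of 0.93, and none passed. All 8 smooth muscle markers had negative changes in both genotypes, with medians of -0.63 in VC- and -0.89 in VC+ mice, none passing. The part of the cell mixture in the changes of the pump subunits was not tested.

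**Figure D5:**
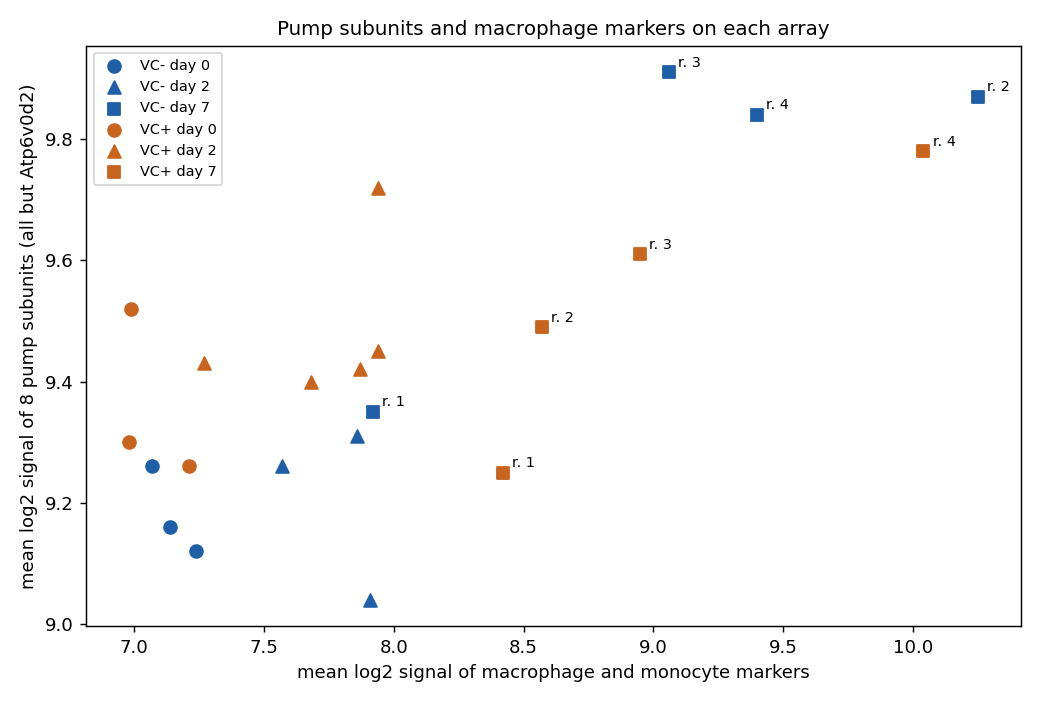
The mean log2 signal of 8 pump subunits is plotted against the mean log2 signal of the macrophage and monocyte markers for each of the 22 arrays, VC- in blue and VC+ in orange, with circles for day 0, triangles for day 2, squares for day 7 and replicate numbers beside the squares. VC- day 7 replicate 1, at 7.92 and 9.35, lies among the arrays of day 2, and the other 3 VC- arrays of day 7 lie highest on the y axis.

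The subunits did not all follow each other across the arrays. Over 22 arrays, which share groups and cell mixture, Pearson r between pairs of the 9 subunits ran from -0.01 to 0.76 as a description. The highest were Atp6v0b with Atp6v0d1, at 0.76, Atp6v1b2 with Atp6ap1, at 0.73, Atp6v0a1 with Atp6v0d1, at 0.70, and Tcirg1 with Atp6ap1, at 0.70. On deviations from the group means these were 0.71, 0.69, 0.43 and 0.69. Among all genes tested, those most like Tcirg1 over the 22 arrays were Laptm5, a lysosomal membrane protein of blood cells (r = 0.904), Hspa2 (0.87) and Gadd45b (0.87). Those most like Atp6v0a1 were Trrap (0.817), Ahnak (0.817) and Mgat4a (0.813). For Atp6v1c1 they were Inhbb (0.905), C1ra (0.904) and Ptx3 (0.90).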

How the data were processed

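RNA from homogenized colonic tissue of 22 samples was hybridized to Affymetrix mouse arrays, 1 sample each. The authors computed the deposited log2 signals from the scanner files by GC-RMA, which corrects background, normalizes the arrays together and summarizes each probe set. The submitters' processing notes name GCRMA, limma and R 2.10.1, and the versions of the packages are not given in the sources used here. Of 45101 probe sets, 35890 were in the annotation table and 34958 had 1 gene symbol, while 932 with several or none were left out. Gene positions and promoters come from RefSeq (GRCm38.p6), where 34754 of those probe sets matched by gene ID.

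Each gene was read on its most variable probe set (by interquartile range), and the upper 50% of genes by that range, 9097 of 18194, entered 1 limma fit (limma 3.58.1, R 4.3.3) of 6 group means with Benjamini-Hochberg adjustment within each of the comparisons and a threshold of 0.05. Groups came from the labels. Pearson r was used to find the 3 genes most like each subunit called. Named were all 10 members, members of 4 related lists called in any comparison and markers of other cells. Members and lists were chosen with earlier results of these data known. Alternatives were other filters and probe sets, only the groups compared, array weights, a replicate block, median centring, Hoxb13 or Xist as a term, leaving out the arrays with Prss2, leaving out each array and, added after the data were seen, every probe set as its own row and a trend of the spread. Scripts were tested on simulated data. The number of arrays per group, 3 to 5, limits the precision.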

Additional observations from a re-analysis of the deposited data

Results flagged for a closer look

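Of 27 groups of 4 or 5 arrays examined over 9 subunits, 3 held an array whose gap to its nearest neighbour was large against the range of the group. Such a gap is found by chance in about 1 in 20 groups. Tcirg1 was 9.12 on VC+ day 7 replicate 4, with the next array at 8.19. Atp6v0b was 10.66 on VC+ day 7 replicate 1, with the next at 10.97. Atp6v0d2 was 6.19 on VC- day 7 replicate 2, with the next at 2.84. The first and the last of these arrays also carried Prss2, at 11.20 and 14.74, and had the highest macrophage marker means of their groups, at 10.04 and 10.25.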

How the results depend on the processing

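The number of subunits called at day 7 against day 0 in VC- mice, 2 as reported, was 0 when the fit held the compared groups alone (3 of all genes called, against 963), with the 3 arrays carrying Prss2 left out (177 of all genes) and with the replicate block (370). It was 1 without the variance filter (580 of all genes), with Hoxb13 (525) or Xist (633) as a term and with every probe set as its own row, and 5 with array quality weights (2223). With 1 array left out it ran from 0 to 4. The adjusted p of Atp6v0a1 ranged from 0.00767 to 0.247 over 11 alternatives and its change from 1.28 to 1.65, and Tcirg1 ranged from 0.0185 to 0.282 and from 0.56 to 0.96. From day 2 to day 7 in VC- mice, none was called as reported, but 2 were without the variance filter, 1 with array weights, 1 with median centring and 3 with every probe set as its own row, 1 of these a fall of 0.14 on an Atp6v1h probe set that reached at most 3.26. That count ran from 0 to 4 with 1 array left out, and was above 0 without VC- day 7 replicate 1 (4), VC- day 2 replicate 1 (3) or VC+ day 7 replicate 4 (1). Array weights also gave 1 call in VC+ mice at day 2, 1 between genotypes at day 7 and 1 for the response at day 7, all 0 as reported. Between genotypes at day 7 the count ran from 0 to 1, the 1 being without VC- day 7 replicate 1. The cause was not tested.

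Signs turned only where changes were near 0. Atp6v0b in VC+ mice at day 7 (0.01) was 0 with array weights, -0.01 with the replicate block, -0.03 with median centring, -0.02 without the Prss2 arrays, -0.06 with Xist as a term and -0.04 to 0.08 with 1 array left out. Atp6v0d1 there (-0.03) was 0.05 with array weights, 0.01 without the Prss2 arrays and -0.13 to 0.12 with 1 array left out. Atp6v0d2 there (0.02) was -0.02 with median centring and -0.06 with Hoxb13 as a term, and Atp6ap1 ran from -0.16 to 0.03 with 1 array left out. The response at day 7 of Atp6v1h (-0.03) was 0.05 with array weights and -0.11 to 0.05 with 1 array left out, and that of Atp6v1a ran from -0.17 to 0.15. Of 354 values of single genes under other settings, 321 kept direction and side of the threshold, 15 lost a call, 8 gained one and 10 changed sign. Of 726 with 1 array left out, 662, 42, 7 and 15 did so.

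The labels tie no replicate number to a shared litter or batch, and the numbers were not taken as pairs in the main fit. Deviations of same-numbered arrays correlated above 0.1 in 18 of 48 pairs (mean r 0.084), against 36 of 152 other pairs (mean r -0.027). Of 22 arrays, 13 correlated best with their own number. Same-numbered arrays were thus somewhat more alike than others, and whether they share a source was not tested. The replicate block ended both calls: Atp6v0a1 was 1.31 (adjusted p = 0.0588) and Tcirg1 0.78 (adjusted p = 0.0912). Many probe sets lay near the lowest readable signal, where a change cannot be measured.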
